A study of Homo sapiens with 4 samples.

Results

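The genes of coats, cargo receptors and fusion factors that act early in the secretory pathway were examined in a list of RNA regions recovered with HuR, an RNA-binding protein that is the product of ELAVL1. A peak was assigned to these genes when the RefSeq transcript named in its annotation belonged to a gene whose symbol begins with TMED and a digit, SEC1 to SEC6, SAR1, LMAN, STX and a digit, VAMP, TRAPPC or GOLG, or is that of SURF4, an SSR subunit or one of the COPI subunits named COPA, COPB, COPE, COPG or COPZ. The rule used only gene names. It found 177 of the 14149 peaks, in 29 of the 3313 genes with a peak. Of the 29 genes, 27 were protein-coding. The others were TMED2-DT, a non-coding transcript that starts beside TMED2, and TMED10P1, a pseudogene.

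The samples came from MDA-MB-231, an established line of human triple-negative breast cancer, grown in DMEM with serum and antibiotics and with no treatment named in the labels. In 2 samples, RNA bound to HuR was taken from the lysate with mouse anti-HuR antibody, and in 2 control samples mouse IgG replaced that antibody. The methods call the 2 samples of each antibody biological replicates. The 4 samples were sequenced without selection of poly(A) tails, and the comparison was meant to find RNA held by HuR. The list gave 1 score for each peak over the whole series, without a value for a sample or for IgG, so neither the difference from IgG nor the spread between replicates could be measured for any gene below. It holds no level of input RNA either, so a strongly bound transcript and an abundant transcript cannot be told apart. Of 8 genes that mark this mesenchymal-like line, AXL and CD44 had a peak, and of 8 luminal or epithelial genes 0 had a peak. With 15.4% of all protein-coding genes in the list, counts this small do not check the identity of the line.

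Newly made secretory and membrane proteins enter the endoplasmic reticulum (ER) through the SEC61 channel. They leave it in vesicles covered by the COPII coat, and the COPI coat returns escaped proteins and receptors from the Golgi apparatus. Cargo receptors of the TMED (p24) and LMAN families join selected cargo to the coats, while tethers such as TRAPP and the golgins, and SNARE proteins such as the syntaxins, bring vesicles to their target membrane and fuse them. HuR reads AU-rich and U-rich stretches of RNA, which are often found in 3′-UTRs, and is best known for protecting mRNAs from decay.

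The sequence around the pentamer ATTTA, the core of AU-rich elements, is shown for the genes with the highest peaks, because it is the letter pattern that HuR is described as reading. Each line holds 25 bases of the sense strand (hg38) from the highest-scoring peak lying wholly in the 3′-UTR, with the ATTTA nearest to the peak centre in capitals. Of the 12 genes with the highest peaks, 5 had such a site.
TMED2, chr12:123597508-123597532, + strand: agaaataagcATTTAcataattgga
SEC23A, chr14:39032441-39032465, − strand: actaaaccaaATTTAgttttcacag
TMED7, chr5:115615483-115615507, − strand: ttacagaataATTTAagacactaca
SEC22B, chr1:120156861-120156885, − strand: gttgcacctcATTTAatgaagctta
STX7, chr6:132460077-132460101, − strand: catatggtctATTTAagtctgatgt

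In SAR1A, TMED4, SSR1, TMED10 and STX6, the highest peak wholly in the 3′-UTR held 0 ATTTA. For SAR1A, counting error does not settle which peak was highest: that of 842.6 held 0 ATTTA and that of 836.4 held 1. The longest run of T in the peaks without ATTTA is shown in capitals instead, again in 25 bases of the sense strand. Picking the longest run always yields some run, so these lines do not measure how U-rich the RNA was. A run of TTTTT was present in 78.7% of 2052 windows lying wholly in a 3′-UTR in the list. This second set was chosen after the first was seen.
SAR1A, chr10:70150824-70150848, − strand: gaaagcatacTTTTTcactgccagg
TMED4, chr7:44579186-44579210, − strand: ttttcctctgTTTTTcactaaataa
SSR1, chr6:7289166-7289190, − strand: cctacccccTTTTTTaacaaaaaga
TMED10, chr14:75132643-75132667, − strand: acccaaacTTTTTTTTTcccccttt
STX6, chr1:180976226-180976250, − strand: tccactggtgTTTTgctgttgctca

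The run was 9 bases long in TMED10 and 4 in STX6. TMED2-DT and SSR3 had no peak lying wholly in a 3′-UTR of their canonical transcript. A match of letters is a description of the window and not a binding site.

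Of 136 protein-coding genes whose symbol fits the rule, 27 were in the list. This was 19.9% of them, with a Wilson 95% interval of 14.0 to 27.3%, and 15.4% of all 20056 protein-coding genes were in the list. The background share thus lay inside the interval. The families GOLGA6 and GOLGA8, whose near-identical copies share reads, and the readthrough gene TMED7-TICAM2 made up 30 of the 136 genes and had 0 peaks. Without them the share was 27 of 106 genes, or 25.5% (18.1 to 34.5%). Only genes without a peak were dropped here, and the 15.4% was not filtered in the same way, so this share has no matched background. A gene without a peak was not shown to be unbound, since the list is a selection whose criterion of altered abundance is not given as a number.

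The scores were read within the list. The peak score is the value HOMER gives to a peak, and all peaks were 347 bp long, so scores of different genes refer to windows of equal length. Scores under 100 lay on whole multiples of 0.245. If 1 step is 1 sequenced tag, which the authors do not state, a score can be given an exact Poisson 95% interval for counting error only. The 29 genes had a median highest score of 77.8, against 34.0 over all 3313 genes with a peak. When peaks overlapping an exon of another gene were left out, these medians were 48.7 and 33.5. With all peaks kept, 10 of the 29 genes, or 34.5%, had a highest score in the top 10% of all genes, at or above 224.3. The 10 genes include TMED2-DT, whose peaks lay on TMED2. The 177 peaks were 1.25% of all peaks and held 2.73% of the summed score of the list.

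TMED2, of the p24 family, held the highest score. TMED2, TMED7, TMED4 and TMED10 had peaks. This was 4 of 11 TMED genes, or 36.4% (15.2 to 64.6%), an interval that held the background share of 15.4%. The 20 peaks of these genes carried 48.3% of the summed score of the early secretory genes. Most of this was TMED2 with 37.4%, whereas TMED4, TMED7 and TMED10 together held 10.8%. These 4 proteins stand for the 4 branches of the family (β, γ, α and δ in this order), which form mixed complexes that cycle between ER and Golgi. TMED1, TMED3, TMED5, TMED6, TMED8, TMED9 and TMED7-TICAM2 had no peak.

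TMED2, on the + strand of chromosome 12 from 123584552 to 123598582, was the second of all 3313 genes by highest peak score and had 7 peaks. Going from the 5′ end, the − and + peaks around exon 2 of 4 scored 1367.7 and 2410.2, and those around exon 3 scored 986.0 and 1344.2. In the last exon, the highest peak, from 123596482 to 123596828, scored 3392.2 (3336.0 to 3449.2), with its centre in the coding part. A − peak from 123597295 to 123597641 and a + peak from 123597407 to 123597753, both in the 3′-UTR, scored 2601.3 and 2598.4. Those last 2 scores were not distinguishable by counting error, whereas the score of the peak over the end of the coding part was above their intervals. The lowest of the 7 scores was thus above the highest score of any other protein-coding early secretory gene. The 3′-UTR of 1853 bases held 5 ATTTA, of which 1 lay in each 3′-UTR peak, and these peaks overlap. TMED2 has 1 pseudogene copy by symbol, so the assignment of its reads could be shared.

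**Figure D1:**
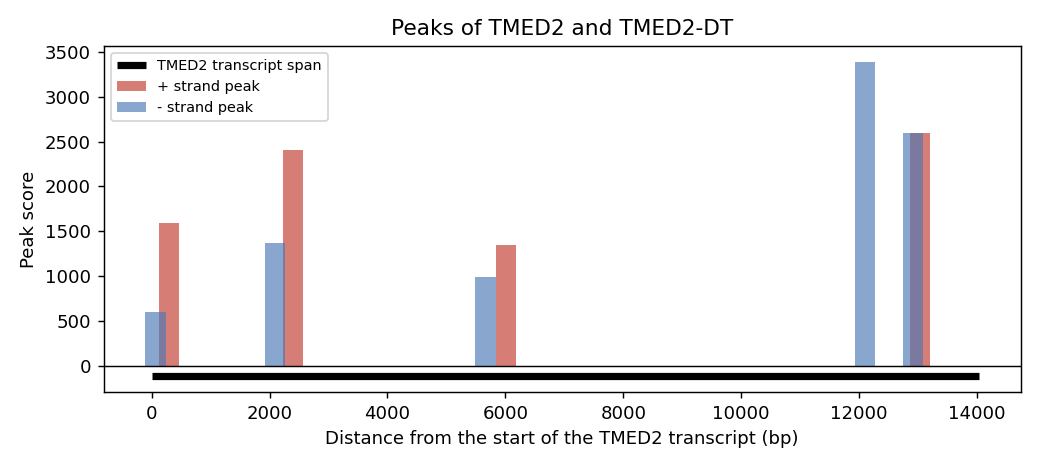
Score of each peak (vertical axis) against its distance in bp from the start of the TMED2 transcript (horizontal axis), with + strand peaks in red, − strand peaks in blue and the transcript span in black. The 7 TMED2 peaks lie between 986.0 and 3392.2, and the pair at the start, at 599.8 and 1592.1, was annotated to TMED2-DT.

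The pair of peaks at the start of TMED2 needs care. They were annotated to the promoter of TMED2-DT, which runs in the opposite direction from the same region, and scored 599.8 and 1592.1. Both overlapped an exon of TMED2, and the gene column of the list named TMED2 for both. Peak strand could not settle the source, because only 49.7% (42.4 to 57.0%) of the 177 peaks had the same strand as their gene. The share was 53.2% over all peaks with a GENCODE gene.

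The other p24 genes had lower scores than TMED2. TMED7, on the − strand of chromosome 5, had 6 peaks from 230.0 to 532.7. Its 3 peaks in the 3′-UTR scored 405.2, 532.7 and 494.1 and held 2, 1 and 3 ATTTA of the 18 in that 3′-UTR of 2999 bases. The peaks of its first exon, at 246.2 and 230.0, were below all of them. TMED4 had 2 peaks, at 520.0 and 527.1, which overlap each other and have their centres in its 3′-UTR. Their score intervals also overlapped, with each other and with that of the highest TMED7 peak. TMED10 had 5 peaks: its highest, 298.8, lay in the 3′-UTR, and the next, 286.6, covered the end of the coding part. Both were above its 3 peaks beside internal exons, from 61.2 to 111.3. TMED10 has 2 pseudogene copies by symbol, so the assignment of its reads could be shared.

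TMED10P1 itself, a pseudogene on chromosome 8, was listed with 1 peak of score 13.7. That peak lay 299 bp outside the GENCODE gene when moved back, and overlapped an exon of ZNF252P, so its assignment was uncertain.

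**Figure D2:**
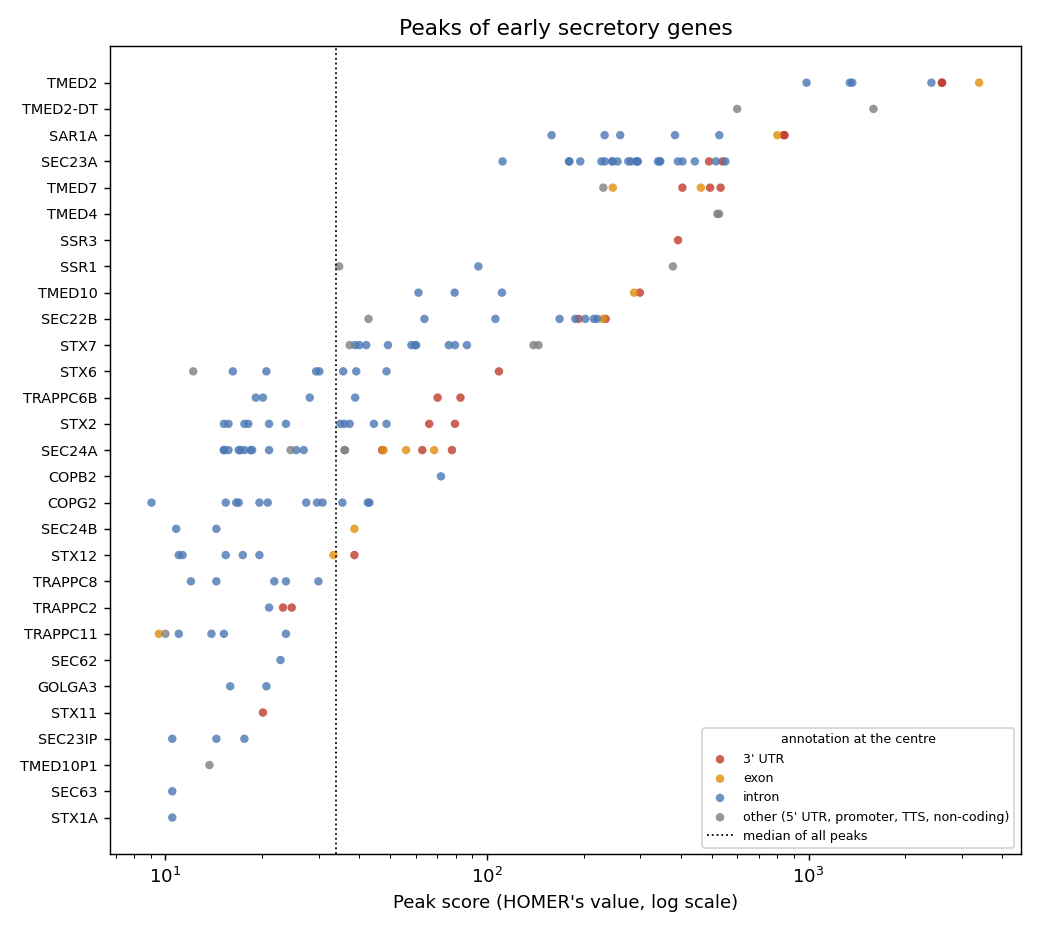
Score of every peak (horizontal axis, log scale) for the 29 genes (vertical axis, ordered by highest score), coloured by the deposited annotation at the peak centre, with the median of all peaks, 34.0, as a dotted line. TMED2 stands above the other genes, and the genes from TRAPPC8 downwards have all their peaks below the dotted line.

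The COPII coat was represented by 5 of 14 genes, or 35.7% (16.3 to 61.2%), against the background share of 15.4%. These were SAR1A, SEC23A, SEC24A, SEC24B and SEC23IP. Their 58 peaks held 31.8% of the summed score. SAR1A, the GTPase whose activation starts coat assembly, had 8 peaks. Its 3 peaks in the last exon, at 842.6, 836.4 and 799.5, were above the others, which ranged from 158.8 to 527.8. The intervals of the 3 peaks in the last exon overlapped one another. SAR1A has 4 pseudogene copies by symbol.

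SEC23A, the subunit that makes SAR1 hydrolyse GTP, had 24 peaks, the most of any early secretory gene. Its scores ranged from 111.8 to 551.3, and all 24 were above the median of the list. The highest peak, from 39091255 to 39091601 on chromosome 14 (551.3, 528.8 to 574.6), lay beside exon 5 of 20, and the highest peak in the last exon, 539.8, was not distinguishable from it by counting error. The peak from 39102856 to 39103202 overlapped an exon of the antisense gene SEC23A-AS1. The SEC24 subunits choose the cargo. SEC24A had 20 peaks from 15.2 to 77.8, the highest in its 3′-UTR, whereas SEC24B had 3 peaks from 10.8 to 38.7. By symbol, SEC24A has 1 pseudogene copy. At the start of SEC24A, the peaks of 36.2 and 47.7 overlapped an exon of SAR1B, which lies beside it. SEC23IP, a SEC23 partner at ER exit sites, had 3 peaks with a highest score of 17.6.

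The remaining COPII genes had no peak. These were SAR1B, SEC23B, SEC24C, SEC24D, the cage subunits SEC13, SEC31A and SEC31B, and the exit-site scaffolds SEC16A and SEC16B. Paralogues thus differed in the list. The listed copy had the longer 3′-UTR with more ATTTA in some families but not in all. SEC23A and SEC23B had 3′-UTRs of 1320 and 675 bases with 6 and 2 ATTTA, and SEC24A and SEC24C had 2815 and 1066 bases with 9 and 0. SAR1B, however, had a longer 3′-UTR than SAR1A (5801 against 5187 bases) and more ATTTA (17 against 10).

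Of 8 COPI subunit genes, 2 had a peak, or 25% (7.15 to 59.1%), an interval that held the background share of 15.4%. COPG2 (γ2 subunit) had 12 peaks with scores from 9.05 to 43.1, all annotated in introns, and 0 ATTTA in its 3′-UTR of 438 bases. COPB2 (β′ subunit) had 1 peak of 71.9 (64.0 to 80.7) beside exon 7 of 22. COPA, COPB1, COPE, COPG1, COPZ1 and COPZ2 had no peak. ARCN1, the δ subunit, which the naming rule leaves out, had 14 peaks with a highest score of 795.6.

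No peak was found for the cargo receptors outside the p24 family. These are the lectins LMAN1, which carries glycoproteins out of the ER, LMAN1L, LMAN2 and LMAN2L, and SURF4, a receptor for soluble cargo. With 0 of 5 genes, the Wilson 95% interval reached up to 43.4% and held the background share of 15.4%. LMAN1 had a 3′-UTR of 3270 bases with 17 ATTTA, and the reason for its absence from the list was not tested.

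At the ER membrane, 4 of 12 translocon and signal peptidase genes had a peak. The share was 33.3% (13.8 to 60.9%), an interval that held the background share of 15.4%. SSR1 and SSR3, subunits of the translocon-associated protein complex, had highest scores of 378.6 (359.9 to 397.9) and 392.8 (373.8 to 412.5), both in the 3′-UTR of the canonical transcript and not distinguishable by counting error. The other SSR1 peaks, at 94 and 34.7, were lower. SEC62 and SEC63, which help proteins through the channel, had 1 peak each, at 22.8 and 10.5. By symbol, SSR1 and SEC63 have 2 pseudogene copies each. The channel subunits SEC61A1, SEC61A2, SEC61B and SEC61G, the signal peptidase subunits SEC11A and SEC11C, and SSR2 and SSR4 had no peak.

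Among SNAREs, 7 of 26 genes had a peak, namely SEC22B and 6 of 16 syntaxins, but 0 of 7 VAMP genes. The background share of 15.4% lay inside the intervals for all SNAREs (13.7 to 46.1%) and for VAMP genes (0 to 35.4%). For syntaxins the interval was 18.5 to 61.4%. SEC22B, which fuses vesicles between ER and Golgi, had 11 peaks from 42.8 to 233.9. Its 3 peaks of the last exon scored 192.6, 233.9 and 229.3, and those around exon 4 scored 202.1 and 214.9, so the 3′ end did not stand apart. SEC22B has 3 pseudogene copies by symbol, and its reads may be shared with them. The syntaxins with the highest peaks act later in membrane traffic. STX7 of late endosomes had 13 peaks and a highest score of 144.6, and STX6 of the trans-Golgi network had 9 peaks and a highest score of 108.9. That STX6 peak overlapped an exon of another GENCODE gene. STX2 of the plasma membrane reached 79.5 over 13 peaks and STX12 of recycling endosomes 38.7 over 7. STX11 had 1 peak of 20.1. STX1A, a neuronal syntaxin, had 1 peak of 10.5, whose centre lay 657 bp from the nearest exon, the farthest of all intronic peaks of the early secretory genes.

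Of 17 TRAPP genes, which encode subunits of a tether, 4 had a peak. The share was 23.5% (9.56 to 47.3%), an interval that held the background share of 15.4%. TRAPPC6B, with a highest score of 82.7, was above the median of 77.8 of the early secretory genes. The other highest scores, below that median, were 29.9 for TRAPPC8, 24.7 for TRAPPC2 and 23.7 for TRAPPC11. TRAPPC2 has 8 pseudogene copies by symbol. Of 8 golgin genes outside the multi-copy families, only GOLGA3 had peaks, with scores of 20.6 and 15.9. This share of 12.5% (2.24 to 47.1%) was likewise not distinguishable from 15.4%. The 6 SEC14L lipid-transfer genes, which fit the letters of the rule but not the pathway, had 0 peaks.

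Genes that act with these proteins but carry other names were looked up as a list of 40. Of these, 16, or 40%, had a peak, against 15.4% of protein-coding genes. The list was picked by hand with earlier results of these data known, so its share is not independent of them. After ARCN1, the highest scores were those of SPCS3 (453.2), a signal peptidase subunit, and KDELR2 (445.1). KDELR1 and KDELR3, which also return escaped ER proteins from the Golgi, scored 191.4 and 233.7, so all 3 KDEL receptors were in the list. The lowest was ERGIC1 with 9.05. The median highest score of the 16 genes was 61.0.

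The position of the peaks in their transcripts was compared with that of the whole list. The deposited annotation placed 123 of the 177 peaks in introns, or 69.5% (62.4 to 75.8%), 25 in 3′-UTRs, or 14.1% (9.75 to 20.02%), and 12 in exons, or 6.78% (3.92 to 11.5%). Over all peaks, 14.6% were in 3′-UTRs, which lay inside that interval, while 12.6% were in exons and 61.9% in introns. The 177 peaks came from 29 genes and many were paired at the same exon, so these intervals do not rest on independent peaks. The differences in exons and introns were not tested. The median score was 192.6 for the 3′-UTR peaks and 36 for the intronic peaks of these genes. Over all peaks these medians were 65.45 and 28.6, so 3′-UTR peaks were the higher ones there too.

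The intronic peaks lay beside exons. Of 126 peaks with their centre in an intron of the canonical GENCODE transcript, 125 were within 347 bp of an exon, or 99.2% (95.6 to 99.9%), against 96.4% over the list. When each position was shifted by 173 bp, the distance from centre to edge, towards the 5′ side of the peak's own strand, 93 peaks lay in coding exons, 35 in 3′-UTRs and 38 in introns. Then 77.4% (70.7 to 82.9%) were in any exon, against 76.6% over the list. Of the 177 moved positions, 174 were within 100 bp of an exon of their gene, and that exon was taken as the exon of the peak. The exceptions were the peaks of STX1A and TMED10P1 and 1 of TRAPPC11 in its promoter.

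Read in this way, the peaks described exons along each transcript. SEC23A had peaks at 13 of 20 exons and SEC24A at 13 of 23. In COPG2, peaks were found at 11 of 24 exons, but at neither the first nor the last. STX7 had peaks at 8 of 10 exons and STX2 at 8 of 11. In these 5 genes, peaks were found at 46 internal exons of 63 to 468 bases (median 120) and at none of 32 others of 53 to 176 bases (median 91.5). The gap was clearest in SEC23A, with 154 against 81 bases, and absent in STX2, with 100 bases in both. In SEC24A it ran the other way, with 121 against 132 bases.

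**Figure D3:**
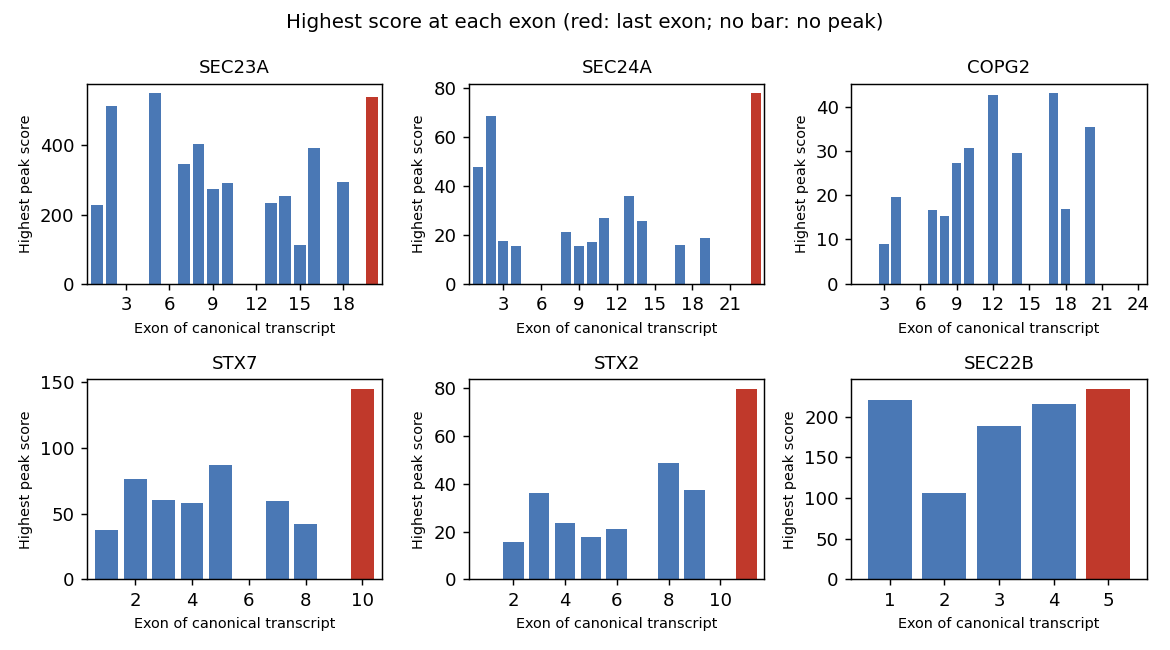
Highest peak score (vertical axis) at each exon of the canonical transcript (horizontal axis, numbered from the 5′ end) in 6 genes, with the last exon in red and no bar where no peak was found. SEC24A, STX7 and STX2 have their highest bar at the last exon, SEC22B has similar bars at its first and last exons, SEC23A has its highest bar at exon 5, and COPG2 has no bar at its last exon.

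The last exon was compared with the other exons of each gene. In 14 genes with peaks at the last exon and at another exon, the highest score of the last exon was above that of the other exons in 13, with a median difference of 0.72 on the log2 scale. In 10 of these 13 the intervals did not overlap. In SEC22B, SEC24A and TRAPPC2 they did, so the order was not distinguishable by counting error. The range ran from −0.03 in SEC23A to 2.01 in SSR1. Over the list, the last exon was higher in 921 of 1155 genes, or 79.7%, with a median of 0.56, and without overlap of the intervals in 690, or 59.7%. Exon length was not taken into account.

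**Figure D4:**
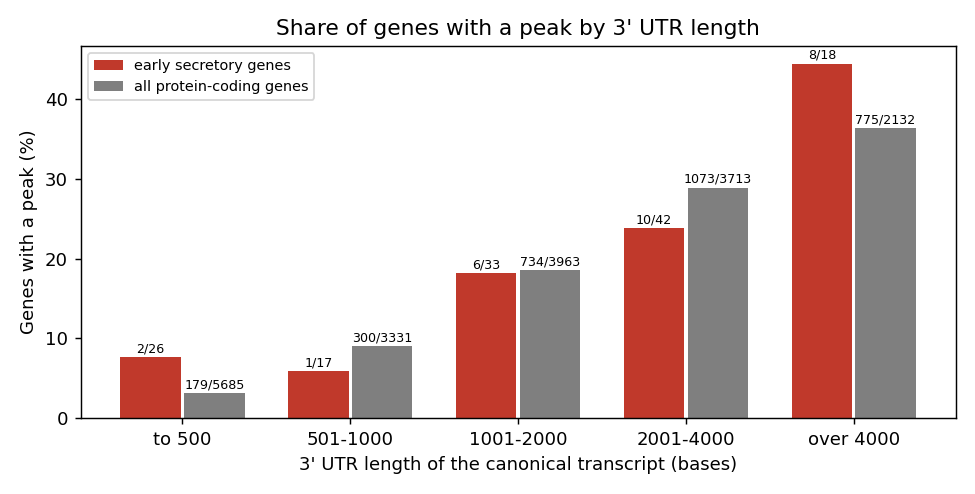
Percentage of genes with a peak (vertical axis) in classes of 3′-UTR length (horizontal axis, bases), for early secretory genes in red and all protein-coding genes in grey, with counts above the bars. Early secretory genes have the higher share in the shortest and longest classes (7.69% against 3.15% and 44.4% against 36.4%) and the lower share in the 3 classes between. The bars include the multi-copy golgins and the readthrough gene, which had 0 peaks.

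Peaks were more frequent in genes with a long 3′-UTR. For the 27 listed genes the median 3′-UTR was 2815 bases with 9 ATTTA, and for the 109 others 1706 bases with 3 ATTTA. Without the multi-copy golgins and the readthrough gene, the latter values were 1066 bases and 1 ATTTA. The density of ATTTA was 2.75 per kb (SD 1.32, n = 27 genes) with a peak and 1.74 per kb (SD 1.93, n = 79 genes) without, again leaving out those families. Over all protein-coding genes the density was 2.85 per kb with a peak and 1.95 per kb without. By length class, 2 of 26 early secretory genes with a 3′-UTR of up to 500 bases had a peak, or 7.69%, and 8 of 18 with over 4000 bases, or 44.4%. Over all protein-coding genes these shares were 3.15% and 36.4%. In the 3 classes between, the share of early secretory genes was the lower one, with 5.88% against 9.01%, 18.2% against 18.5% and 23.8% against 28.9%. These class shares kept the multi-copy golgins and the readthrough gene. Without them, the 3 shares were 6.25% (1 of 16 genes), 25% (6 of 24) and 43.5% (10 of 23). The last 2 were then above the shares of all protein-coding genes, but those shares were not filtered in the same way. No test was made of these differences.

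In the 27 peak windows that lay wholly in a 3′-UTR, ATTTA was present in 17, or 63.0% (44.2 to 78.5%), against 54% of 2052 such windows in the list. The background share lay inside the interval. Some of the 27 windows overlapped and shared bases, as in TMED2, so the intervals of this paragraph do not rest on independent windows. A run of TTTTT was present in 25 windows, or 92.6% (76.6 to 97.9%), against 78.7%, and the heptamer TATTTAT, which contains ATTTA, in 2, or 7.41%, against 8.24%. Only the sense strand was searched, in windows as the list placed them. With windows moved back by 173 bp, ATTTA was present in 18 of 27, or 66.7% (47.8 to 81.4%). Over the list this share was 52.4% of 1961 such windows, which lay inside that interval. Mean GC content was 36.4% (SD 5.96, n = 27 windows) and 38.9% (SD 7.43, n = 2052 windows) in the list, and no test was made of this difference.

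Peaks of opposite strand came in pairs around exons. In 50 pairs, a − peak was followed by a + peak of the same gene within 1000 bp, with a median offset of 327 bp, and in all 50 both were assigned to the same exon. Over the list, the median offset was 337 bp, and 2935 of 3184 pairs, or 92.2%, shared an exon. The higher score of a pair was 1.24 times the lower in the median and 5.14 times in the first exon of SEC22B (219.8 against 42.8). The focus ratio, a deposited fraction that describes how the reads of a peak lie around its centre, followed the scores. In 31 of the 33 pairs with both peaks in introns, the focus ratio of the − peak equalled its share of the summed score within 0.01. In TMED2 exon 2, for example, the − peak held 36.2% of the pair's score and had a focus ratio of 0.363, and the + peak had 0.637. Over the list, this held in 86.6% of 1671 such pairs.

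**Figure D5:**
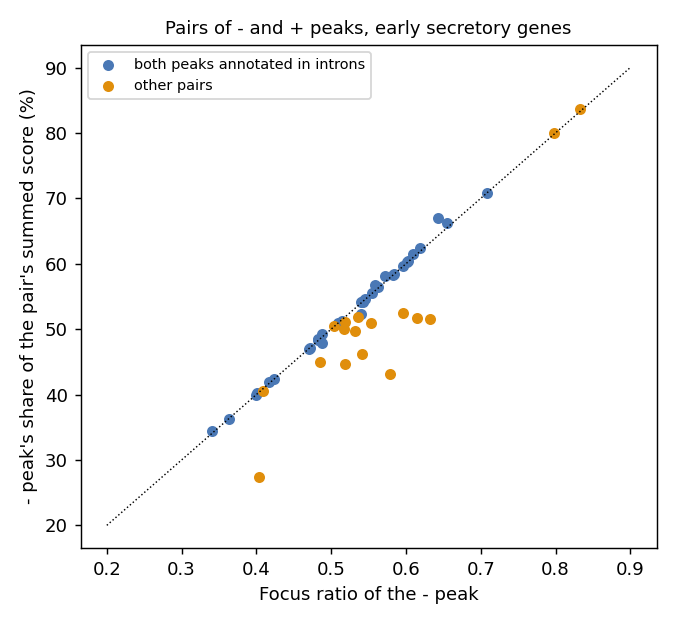
Share of the pair's summed score held by the − peak in percent (vertical axis) against the focus ratio of that peak (horizontal axis) for the 50 pairs of early secretory genes, with equality as a dotted line. The pairs with both peaks in introns lie on or close to the line, and several other pairs lie below it.

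The gene column of the list named another gene than the transcript for 48 of the 177 peaks, or 27.1% (21.1 to 34.1%), against 41% over the list. By this column, 3 peaks of TMED2 were given to DDX55, 5 of SAR1A to TYSND1, 4 of TMED10 to NEK9, 9 of SEC24A to CAMLG and all 6 of TMED7 to TMED7-TICAM2. In COPG2, 7 peaks were given to COPG2IT1. Either source yielded 29 early secretory genes, of which 25 were shared. SEC24B, STX1A, TMED2-DT and TMED7 were found only through the transcripts, and GOLGA1, STX19, TMED5 and TMED7-TICAM2 only through the gene column. Of the 177 peaks, 13, or 7.34%, overlapped an exon of another gene, against 8.08% over the list.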

How the data were processed

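RIP-seq libraries from 2 HuR RIP and 2 IgG RIP samples of MDA-MB-231 cells were mapped by the authors to hg38 with STAR, and peaks were called with HOMER. The deposited table is a selection of those peaks. Versions, settings, the selection threshold and any pooling of replicates are not given in the sources used here. The methods name ANNOVAR, but the header of the list shows a HOMER annotation. The authors deposited a peak score (HOMER's own value, scale not stated), a focus ratio, which is a fraction from 0 to 1, and a distance to the nearest start site. How tags were shifted or extended affects where peaks lie. Depth is unknown.

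All values here were computed from that list, in which 1 column serves the whole series. Host genes came from RefSeq, matched for 13838 of 13929 peaks with a transcript, and exons, 3′-UTRs and sequence from hg38 with GENCODE 44, matched for 13707 peaks and for all 177 described here. Coordinates are 1-based, and an overlap is at least 1 bp. No test was made, because no value exists for a sample, and peaks and genes are not replicates. An edgeR test of HuR against IgG had been planned for the case that the list held a count for each sample, and was not run. Shares carry Wilson intervals, which with the Poisson intervals cover counting error only, since reads have no molecular identifiers. Peaks of the same gene are not independent, so the intervals for shares of peaks are likely too narrow. The score step was sought on the 11121 scores under 100, all of which lay on multiples within rounding, against 39.3% by chance. Scores end at 8.32, or 34 steps.

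Genes named were the 12 with the highest peaks, the 5 with most peaks, the extremes of each role group and genes without a peak. Others were named after their values were seen. The members, gene lists and rules were chosen with earlier results of these data known. Alternatives covered the gene column, a score filter at the median of 34.0, merged loci, the canonical transcript, moved positions and other motifs. Python 3.11.15, numpy 2.4.6, scipy 1.17.1, pandas 2.3.3, pysam 0.24.0 and matplotlib 3.10.9 were used, and functions were tested on simulated data.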

Additional observations from a re-analysis of the deposited data

How the results depend on the processing

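Of 26 alternatives to 7 results, 20 stayed within the interval of a share or within 1.5 times the value, and 6 did not. Those using protein-coding genes only, or moved positions in an exon, were chosen after seeing the data. The number of early secretory genes with a peak was 27, and it was 18 when only scores of 34.0 or more were kept, 19 with centres in an exon and 28 by the gene column. The share of all protein-coding genes under these filters is not given, so these counts have no background beside them. The share of 3′-UTR windows with ATTTA, 63.0%, was 7.41% for TATTTAT and 92.6% for TTTTT, since these are other motifs by construction. The share of peaks with another gene in the gene column, 27.1%, was 48% among peaks annotated in 3′-UTRs, and the cause was not tested. The median highest score of 77.8 became 171.4 with 3′-UTR peaks only, 48.7 with peaks overlapping no exon of another gene and 307.4 with summed scores. Over all genes with a peak, the value of 34.0 became 54.2, 33.5 and 72.1 in turn. The cause was not tested. TMED2 held 37.4% of the summed score, and 34.6% with 1 peak per merged locus.

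No paired analysis was possible because scores are not split by sample. The planned omission of each replicate was not run for the same reason. Depth is unknown, so genes not in the list cannot be called unbound.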
